A study of Mus musculus with 2 samples.

Results

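Open chromatin was examined at the promoters of the Zfp genes, a family of mouse zinc finger genes, in ATAC-seq peak lists of wild-type (WT) and Uhrf1 knockout (KO) embryonic stem cells (ESCs). ATAC-seq marks DNA into which the Tn5 transposase can insert sequencing adapters. A peak was taken as a Zfp promoter peak when its centre lay within 2 kb of any transcript start (TSS) of an autosomal protein-coding gene named Zfp plus digits in GENCODE vM1, with Zfp42 left out. This rule gave 332 genes, 716 of the 71914 WT peaks and 577 of the 61640 KO peaks. The rule did not use whether a peak was found in the other genotype.

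Both samples were undifferentiated mouse ESCs, named in the paper as E14 and Uhrf1 KO cells. They were grown in serum and leukemia inhibitory factor on gelatin or on plates coated with embryonic fibroblasts (MEFs). One was labelled WT and the other Uhrf1 KO, and 50000 cells were lysed for each. Each genotype is 1 library of 1 line, and both lines came from the same outside laboratory. A difference between the lists is therefore a difference between those libraries, and no test between genotypes was possible. The lists hold positions only, so the number of reads behind a single peak is unknown and a missing peak does not show that a promoter was closed.

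Most mouse Zfp genes encode proteins with tandem C2H2 zinc fingers, and many of those also carry a KRAB domain. KRAB zinc finger proteins bind DNA, often within retroelements or imprinted regions, and recruit the co-repressor Trim28 and the histone methyltransferase Setdb1. Uhrf1 brings the maintenance methyltransferase Dnmt1 to newly replicated DNA, so it acts on the same silenced elements through DNA methylation.

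The cell label was checked with promoter peaks of marker genes, counted with the same 2 kb rule. All 8 ESC markers (Pou5f1, Sox2, Nanog, Esrrb, Klf4, Tdgf1, Dppa5a and Utf1) had at least 1 peak in both libraries, as did 57.4% of the autosomal protein-coding genes that are not Zfp genes, with 36 WT and 30 KO peaks in total. Of 8 fibroblast markers, 4 had a peak in WT and 3 in KO, with 8 and 6 peaks, beside 64.1% and 59.1% of those genes. Col1a1 (4 WT and 2 KO peaks) and Col1a2 (2 and 3) held most of these, Thy1 had 1 in each, and Dcn had 1 WT peak. Col3a1, Lum, Postn and Twist2 had none in either list. Only 1 of the 8 fibroblast markers had a high-CpG promoter, and most were low in CpG (classes defined below). Of other low-CpG genes, 21.5% had a WT peak and 19.3% a KO peak, so the shares of all genes are an unlike comparison for these markers. A promoter peak is not expression, and the share of feeder cells in either library was not tested.

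Zfp promoters were mostly open in both libraries. A promoter peak was present in WT for 271 of the 332 genes (81.6%, 95% exact binomial interval 77.0% to 85.6%), against 64.1% of 20948 other autosomal protein-coding genes. In KO the count was 258 genes (77.7%, 72.8% to 82.1%), against 59.1% of other genes. Peaks were found in both libraries at 252 Zfp genes (75.9%, 70.9% to 80.4%), against 57.4% of other genes, and at 251 of these at least 1 peak was shared, meaning that a peak of the other library lay within 100 bp. The exception was Zfp362, with 2 WT peaks and 1 KO peak that did not meet this distance. At 19 genes a peak was listed in WT alone (5.72%, 3.48% to 8.79%), close to the 6.74% of other genes. Of these 19, 8 had the start of another gene within 2 kb of one of their own, and 11 had none. This was 12.1% (5.38% to 22.5%) and 4.14% (2.08% to 7.28%) of the Zfp genes of either kind, and these intervals overlap. Of 1411 other genes with a peak in WT alone, 1096 had no such start. Their shares by kind were not compared, so whether the contrast is particular to Zfp genes was not tested. At 6 Zfp genes a peak was listed in KO alone (1.81%, 0.666% to 3.89%), beside 1.70% of other genes. The remaining 55 genes had no promoter peak. These intervals cover counting error only, and the genes of a library are not replicates of its genotype.

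The excess of open genes over other genes was examined by CpG content. Promoters were classed by the 500 bp around the 5′-most TSS. High CpG meant at least 55% GC and a ratio of observed to expected CpG of at least 0.6, low CpG meant a ratio below 0.4, and the rest were middle. Among 171 high-CpG Zfp genes, 98.8% (95.8% to 99.9%) had a WT peak and 94.2% (89.5% to 97.2%) a KO peak, beside 96.7% and 90.0% of 9522 other genes of the class. Among 80 middle genes the shares were 88.8% (79.7% to 94.7%) in WT and 86.3% (76.7% to 92.9%) in KO, beside 73.1% and 66.0%. Among 81 low-CpG genes they were 38.3% (27.7% to 49.7%) and 34.6% (24.3% to 46.0%), beside 21.5% and 19.3%. Other genes thus lay outside the Zfp interval in the middle and low classes only. The mix of classes differed as well, with high-CpG promoters at 51.5% of Zfp genes and 45.5% of other genes and low-CpG promoters at 24.4% and 38.2%. With the class shares of other genes weighted by the Zfp mix, a comparison added after seeing the data, 72.7% of other genes would have a WT peak and 67.0% a KO peak, between their observed shares and those of Zfp genes. None of the 171 high-CpG Zfp genes was open in KO alone (0 of 171, exact upper bound 2.13%), beside 0.683% of other high-CpG genes. In WT alone 8 high-CpG genes were open (4.68%, 2.04% to 9.01%), beside 7.34%. Both shares of other genes lay within these bounds.

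Most Zfp promoter peaks had a counterpart in the other library. In WT, 129 of 716 peaks (18%, 15.3% to 21.0%) had no KO peak within 100 bp. The corresponding share was 25.8% of promoter peaks of other protein-coding genes and 32.2% of all autosomal peaks. In KO, 38 of 577 peaks (6.59%, 4.70% to 8.93%) had no WT peak within 100 bp, against 8.96% of other promoter peaks and 24.4% of all autosomal peaks. Both Zfp shares lay below those of other promoters, in KO by a margin that only just exceeded counting error. The WT share stayed below beyond counting error under all 9 alternative settings tried, and the KO share under 1 of 9, so the KO difference is not firm. Of the peaks without a counterpart, 98 WT and 30 KO peaks stood at genes that were open in both libraries. Most were thus additional peaks of a gene with a promoter peak in both lists, though not always at the same start. Of all peaks without a counterpart, 52 WT (40.3%) and 15 KO (39.5%) peaks lay more than 1 kb from the nearest peak of the other library. Shared peaks were close in position, with a median of 30 bp from a WT centre to the nearest KO centre.

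Fewer peaks were listed in KO at Zfp promoters, as at other promoters. The ratio of KO to WT peaks was 0.806 (95% exact interval 0.721 to 0.901), beside 0.761 at other promoters and 0.853 over all autosomal peaks. That interval treats neighbouring peaks as independent. With peaks no more than 100 bp apart merged into 1, there were 486 WT and 433 KO Zfp regions, a ratio of 0.891. Its interval (0.781 to 1.02) includes equal numbers and also the merged ratio at other promoters, 0.804. Of 277 Zfp genes with any promoter peak, 129 (46.6%) had more peaks in WT, 88 (31.8%) had equal numbers and 60 (21.7%) had more in KO. Other genes divided in a like way, with 51.0%, 29.3% and 19.7%. The ratio moved with base composition in both sets. The GC content and CpG number of a peak were counted over 200 bp around its centre, a window wider than the listed peak. At Zfp promoter peaks of at least 70% GC it was 0.704 (0.562 to 0.880), with 196 WT and 138 KO peaks. Below 50% GC it was 1.32 (0.809 to 2.18), with 31 WT and 41 KO peaks. Other promoters gave 0.662 and 1.26 in the same ranges. Zfp promoter peaks were lower in GC than other promoter peaks, with medians of 63.0% and 66.5% in WT and of 61.5% and 65.0% in KO.

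Within ranges of GC the Zfp peaks in WT still had a counterpart more often than those of other promoters, except below 50% GC. From 50% to 60% GC, 40 of 229 WT Zfp peaks (17.5%, 12.8% to 23.0%) lacked one, beside 29.5% of other promoter peaks. In KO the same range held 12 of 198 (6.06%, 3.17% to 10.3%), beside 17.2%. From 60% to 70% GC the WT shares were 18.5% (13.9% to 23.7%) and 23.6%, a difference within counting error. At 70% GC or more the shares were 16.3% (11.4% to 22.3%) and 26.2% in WT, and 2.17% and 3.17% in KO. Below 50% GC they were 29.0% and 29.2% in WT, with 31 Zfp peaks. In KO, 15 of 41 Zfp peaks below 50% GC (36.6%, 22.1% to 53.1%) lacked a counterpart, beside 39.6% of other promoter peaks, and these were 15 of the 38 such KO peaks. These ranges were chosen after seeing the data.

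Peaks were concentrated around the start itself. The median distance from a peak centre to the nearest TSS of its gene was 116.5 bp in WT and 114 bp in KO, and 61.3% and 62.2% of peaks lay within 200 bp. Other promoter peaks were similar, with medians of 137 bp and 118 bp and with 58.6% and 62.1% within 200 bp. By annotation, 309 WT peaks lay outside the gene, 211 in an intron, 155 in a 5′ UTR and 24 in a coding exon. The KO numbers were 270, 157, 126 and 14. Peaks in the 200 bp upstream of a TSS lacked a counterpart least often among the upstream and downstream ranges of WT, in 32 of 286 cases (11.2%, 7.78% to 15.4%). More than 500 bp upstream the share was 29.3% (18.1% to 42.7%), and more than 500 bp downstream 33.3% (21.1% to 47.5%). In KO, 8 of 254 peaks (3.15%) in the 200 bp upstream lacked one, and 3 of 105 (2.86%) within 200 bp downstream. More than 500 bp away the KO shares were 22.9% upstream (11 of 48) and 12.5% downstream. Other promoter peaks were not divided by these ranges, so whether the order is particular to Zfp promoters was not tested. At the edge of the 2 kb rule, 16 WT and 17 KO peaks lay between 1500 and 2000 bp from a TSS. A further 19 WT and 14 KO peaks lay between 2000 and 2500 bp and were left out.

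Among 7 genes with roles in silencing retroelements or imprints, 6 were open in both libraries, as were 252 of all 332 Zfp genes. More peaks were listed in WT for 5 of these 6 open genes, beside 46.6% of all open Zfp genes. Together they held 21 WT and 13 KO peaks. Zfp57, which protects methylation at imprinted regions, had 5 WT peaks and 2 KO peaks. Its KO peaks, on chromosome 17 from 37139354 to 37139454 and from 37140105 to 37140205, were both in annotated 5′ UTR and both had a WT counterpart. The WT peak without one, from 37139697 to 37139797, lay in an intron, and the 200 bp around its centre were 71.0% GC with 21 CpGs. Zfp445, another imprint protector, had no promoter peak in either list. The nearest WT peak lay 3774 bp upstream of its start, on chromosome 9 from 122774970 to 122775070, held 23 CpGs and had no KO counterpart. The nearest KO peak was 24124 bp away.

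Zfp809, which recognises the primer binding site of murine leukemia virus, had 4 WT and 2 KO peaks, all of them shared. They spanned its start on chromosome 9, from 189 bp upstream to 211 bp downstream by their centres. Zfp568, a repressor of a placental Igf2 transcript, had 5 and 3 peaks. Its WT peaks without a counterpart lay 1878 bp upstream and 345 bp downstream of the TSS, whereas the peak 129 bp upstream was shared. Zfp932, linked to endogenous retroviruses, had 3 and 2 peaks, all shared, but only 37.5% of the 31-bp tiles of its promoter were unique in the genome. Zfp708 was the gene of this group with more peaks in KO (2 WT and 3 KO). Its additional KO peak lay 328 bp upstream of the distal TSS on chromosome 13, from 67215195 to 67215295, 5626 bp from the nearest WT peak. Zfp819 had 2 WT peaks and 1 KO peak.

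All 5 genes with roles in ESC transcription were open in both libraries, as were 75.9% of all Zfp genes, with 18 WT and 14 KO peaks. Their promoters were of the high-CpG and middle classes, in which 94.2% and 81.25% of Zfp genes were open in both. Zfp281, a regulator of pluripotency genes, had 4 and 2 peaks. Its WT peak without a counterpart lay in coding sequence 808 bp downstream of the TSS, and the peaks at the start were shared. Zfp143, the mouse counterpart of ZNF143, a general promoter-binding activator, also had 4 and 2. Zfp462 had 6 in each library, Zfp217 had 3 in each, and Zfp207 had 1 in each, with centres 1 bp apart on chromosome 11 at 73 bp (WT) and 74 bp (KO) upstream of its TSS.

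The 7 developmental genes were likewise all open in both, against the same 75.9%, with 24 WT and 17 KO peaks. Most of the 7 had high-CpG promoters, a class in which 94.2% of Zfp genes were open in both. Zfp703 differed most among the 7, with 5 WT peaks and 1 KO peak. The KO peak, on chromosome 8 from 28087495 to 28087595, was listed at the identical position in WT. The 4 WT peaks without a counterpart lay 1288, 613 and 557 bp upstream and 803 bp downstream of the TSS. Zfp423, a regulator of neural and fat cell differentiation, had 5 and 3 peaks, and Zfp503 had 6 and 5. Zfp521, a related factor of neural and blood progenitors, was the gene of this group with more peaks in KO (2 WT and 4 KO), all of them shared. Zfp536 and Zfp488 each had 2 WT peaks and 1 KO peak, and Zfp335 had 2 in each. Zfp36, an RNA-binding protein with fingers of another type that promotes mRNA decay, had 2 in each.

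Of the 5 Zfp genes with the most peaks over both lists, 4 had peaks at more than 1 annotated start, whereas all peaks of Zfp91 were nearest to the same one. Zfp800 held 11 WT and 6 KO peaks. Of the WT peaks, 10 lay within an internal start region on chromosome 6 between 28210934 and 28212457, and 1 at the distal start, from 28347791 to 28347891. The 2 WT peaks without a counterpart were the most upstream of the internal region, 387 and 475 bp from its TSS. Zfp219 had 8 WT and 9 KO peaks over 3 starts, and 1 WT peak, of 90.5% GC, had no counterpart. Zfp161 had 9 and 6 peaks, Zfp91 had 8 and 7, and Zfp444 had 8 and 6. Except for 1 WT peak each at Zfp219 and Zfp444 and the 2 at Zfp800, all peaks of these 5 genes were shared.

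The 19 genes open in WT alone held 31 such peaks, and 10 of the genes had a single peak. To rank peaks, the number that ends each peak name was ordered within its chromosome and divided by the number of peaks there. The meaning of this number is not given in the sources used here, but shared peaks were more common at low ranks. Among WT Zfp promoter peaks, 0 of 220 in the lowest 20% of ranks lacked a counterpart (exact upper bound 1.66%), against 36 of 70 in the highest 20% (51.4%). Other promoter peaks showed the same order, with 0.745% and 63.3%. Of the 19 genes, which had no peak in the whole KO list, 8 had a WT peak in the lower 50% of ranks. The peaks of the 19 genes reached a lowest rank of 0.212 and a median over genes of 0.560, and the lowest-ranked peak of each had a central 31 bp found once in the genome.

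The lowest rank among these genes belonged to Zfp882, a KRAB-like gene on chromosome 8. Its start region held 5 WT peaks between 74432312 and 74432764, and the nearest KO peak was at least 7576 bp from any of them. Zfp617 starts at the same place and shares these peaks. Zfp617 counts as open in KO through another start, where a WT peak (74446622 to 74446722) and a KO peak (74446608 to 74446708) were shared. Zfp239 followed with a rank of 0.352 and 1 peak at 33 bp upstream of a TSS, on chromosome 6 from 117813012 to 117813112. Zfp646 and Zfp668 are divergent neighbours on chromosome 7 with 3 WT peaks in common, from 135019202 to 135020449, all at least 18701 bp from a KO peak. Zfp593 (rank 0.398), Zfp791 (0.401) and Zfp251 (0.415) each had 1 peak, at 12, 118 and 78 bp upstream of the TSS. Zfp648 had 2 peaks, the lower ranked (0.465) in coding sequence 1158 bp downstream of the TSS.

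The 6 genes open in KO alone were Zfp187, Zfp759, Zfp101, Zfp595, Zfp952 and Zfp607. Their ranks ran from 0.452 to 0.923, and 1 gene of the 6 lay in the lower 50% of ranks. Zfp187, on chromosome 13, had its peak centred on the TSS, from 21545549 to 21545649. Zfp595 had 3 neighbouring peaks over its start on chromosome 13, from 67433357 to 67433599, and the nearest WT peak was at least 25964 bp away. The central 31 bp of 1 of these 3 occurred 2 times in the genome. The peaks of Zfp759, Zfp101 and Zfp952 were centred 100, 64 and 4 bp upstream of the TSS, and their GC content was 51.5%, 45.0% and 47.5%. The Zfp607 peak lay 1951 bp upstream, near the limit of the rule. The nearest WT peak was more than 10 kb away for all 6. Of these genes, 5 lay in clusters of Zfp genes, as did 154 of all 332, and none had a high-CpG promoter, beside 51.5% of all Zfp genes.

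Zfp genes lie in clusters on a few chromosomes. With at least 4 genes whose neighbouring starts were no more than 500 kb apart, 18 clusters on 7 chromosomes held 154 of the 332 genes, and chromosome 7 alone held 9 of the clusters with 72 of these genes. All genes were open in both libraries in 5 clusters. KO peaks were fewer than WT peaks in 12 clusters, equal in 4 and more numerous in 2. The ratio of KO to WT peaks per cluster ran from 0.429 to 1.67, and in all 18 its exact interval included the ratio of 0.761 at other promoters.

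The largest cluster, 20 genes on chromosome 17 with first starts from 21145905 to 23736454, was open nearly throughout. The WT list had 50 peaks there and the KO list 45, with 95% exact Poisson bounds of 37.1 and 65.9 in WT and of 32.8 and 60.2 in KO. Of these, 3 in each library lacked a counterpart. The 19 open genes were the same in WT and KO: Zfp160, Zfp677, Zfp54, Zfp51, Zfp52, Zfp948, Zfp760, Zfp229, Zfp820, Zfp942, Zfp943, Zfp947, Zfp944, Zfp758, Zfp946, Zfp945, Zfp40, Zfp213 and Zfp13. Zfp53 had no promoter peak, and the peaks closest to its start were 2030 bp away in WT and 2125 bp in KO, just beyond the rule. Zfp942 and Zfp943 share a start region with 4 peaks in each list, and Zfp758 and Zfp944 share one with 3.

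The cluster of 18 genes on chromosome 13, with first starts from 66774266 to 67914753, had 28 WT peaks (18.6 to 40.5) and 32 KO peaks (21.9 to 45.2). It was one of the 2 clusters with more KO peaks. Zfp712, Zfp708, Zfp455, Zfp458, Zfp457, Zfp429, Zfp459, Zfp58, Zfp748, Zfp738, Zfp493 and Zfp273 were open in both libraries. Zfp953 was open in WT alone, with 3 peaks, and Zfp759 and Zfp595 in KO alone. The peaks of Zfp595 and Zfp953 lie within 29 kb of one another, so the lists differed in opposite directions within a short stretch. In this cluster 9 of 18 promoters were low in CpG, and 3 WT and 4 KO peaks had a centre that occurs more than once in the genome.

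The next clusters, of 14 genes each, lie on chromosome 7. In the first, with starts from 24866943 to 26006470, 31 WT and 28 KO peaks were listed, and 2 WT peaks and no KO peak lacked a counterpart. Zfp180, Zfp112, Zfp235, Zfp114, Zfp111, Zfp109, Zfp93, Zfp61, Zfp94, Zfp428, Zfp574 and Zfp526 were open in both, Zfp575 in WT alone, and Zfp108 in neither. The other, from 30553571 to 30954746, held 26 WT and 19 KO peaks. Zfp84, Zfp30, Zfp790, Zfp420, Zfp27, Zfp74, Zfp568, Zfp82, Zfp566, Zfp260, Zfp382 and Zfp146 were open in both, Zfp940 in WT alone, and Zfp14 in neither.

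Of the 19 WT-only genes, 11 lay outside any cluster, a share like that of all Zfp genes (178 of 332), and 4 in one smaller cluster. Of its 10 genes on chromosome 7 with starts from 134376575 to 135020342, 9 were open in WT and 5 in KO. The 4 genes open in WT alone were Zfp764, Zfp689, Zfp646 and Zfp668, and the last pair share the same 3 peaks. The cluster held 16 WT and 9 KO peaks, a ratio of 0.563 (0.219 to 1.35), and 7 of the WT and 3 of the KO peaks lacked a counterpart. The 3 KO peaks stood at Zfp553, which had 1 WT and 4 KO peaks. The cluster was singled out after its values were seen. On chromosome 17, a cluster of 11 genes from 32925232 to 33766035 held 2 of the 6 KO-only genes, Zfp952 and Zfp101, with 12 peaks in each library.

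The smaller clusters differed in how many of their genes were open. On chromosome 7, all genes were open in both libraries in the clusters of 6 genes from 4866819 to 5003134 (22 WT and 20 KO peaks, none without a counterpart), of 4 from 7074163 to 7162506 (8 and 7) and of 7 from 13008100 to 13563197 (15 in each). The same held for 4 genes on chromosome 2 from 149962444 to 150310827 (10 and 7) and for 5 on chromosome 9 from 20189621 to 20385769 (12 in each). In the cluster on chromosome 2, 6 of the WT and 4 of the KO peaks had a centre that occurs more than once. On chromosome 7, 5 of 6 genes from 6107573 to 6336080 (16 peaks in each) and 4 of 5 from 50442540 to 50862539 (9 and 8) were open in both. Of 6 genes from 28516408 to 29164274, 2 were open in WT and 3 in KO, with 3 and 5 peaks, and this was the other cluster with more KO peaks. On chromosome 6, 8 of 9 genes from 47780866 to 48563179 were open in both, and 8 of 21 WT peaks and 1 of 13 KO peaks lacked a counterpart. On chromosome 9, 3 of 5 genes from 21875789 to 22094985 were open in both (8 and 5 peaks). On chromosome 8, 3 of 6 genes from 71750242 to 72315077 were open in both (11 and 10). Of the 4 from 74411163 to 74474937, 3 were open in WT and 2 in KO, with 7 and 3 peaks.

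Clustered and other Zfp genes were open about equally often. In WT, 81.8% of 154 clustered genes (74.8% to 87.6%) and 81.5% of 178 genes outside clusters (75.0% to 86.9%) had a peak, and in KO the shares were 79.9% and 75.8%. The ratio of KO to WT peaks was 0.872 (0.737 to 1.03) for clustered genes and 0.757 (0.651 to 0.879) for genes outside clusters. These intervals overlap. Clustered genes had fewer high-CpG promoters (42.9% against 59.0%), and their KO peaks had a lower median GC content (59.0% against 64.5%).

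Protein features were read from translated GENCODE vM1 coding sequences. Of the 332 genes, 111 matched a fixed KRAB pattern, and 132 matched a wider one that was added after the first had missed known KRAB genes such as Zfp932. Zfp708 matched neither and is counted here among the others. With the fixed pattern, 80.2% (71.5% to 87.1%) of KRAB-like genes had a WT peak and 76.6% a KO peak, beside 82.4% and 78.3% of the others. With the wider pattern, 77.3% (69.2% to 84.1%) of KRAB-like genes had a WT peak and 74.2% a KO peak, beside 84.5% (78.7% to 89.2%) and 80.0% of the others. High-CpG promoters were found at 37.1% of KRAB-like genes and 61.0% of the others. Within the high-CpG class, all 49 KRAB-like genes had a WT peak and 47 a KO peak, beside 98.4% and 93.4% of 122 others. Within the middle class, 92.5% of 40 KRAB-like genes had a WT peak and 87.5% a KO peak, beside 85.0% of 40 others in each library. Within the low-CpG class, 16 of 43 KRAB-like genes (37.2%) had a peak in WT and 16 in KO, and 15 had one in both. Among 38 other low-CpG Zfp genes, 39.5% had a WT peak and 31.6% a KO peak. The number of C2H2 fingers, with a median of 10 and a maximum of 36, did not order the genes by openness. The WT share was 80.8% for up to 5 fingers, 84.6% for 6 to 10, 79.4% for 11 to 15 and 81.1% above 15.

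The 55 genes without a promoter peak were mostly poor in CpG. Their classes were 48 low, 5 middle and 2 high, and the high-CpG genes were Zfp641 and Zfp11. The nearest listed peak lay a median of 10980 bp from a start in WT and 9665 bp in KO. For 39 of the 55, the nearest WT peak was shared with KO. Over all autosomal WT peaks, 32.2% lacked a counterpart, so most peaks of any kind were shared. For 21 of the 55 genes the nearest WT peak lay upstream, was shared and stood near no other annotated gene start. Of these 21 peaks, 12 were within 10 kb. At Zfp873, for example, peaks lay 10037 bp (WT) and 10034 bp (KO) upstream, and the WT peak held 20 CpGs. At Zfp59 they lay 4281 and 4332 bp upstream, and the WT peak held 17 CpGs. Whether these are promoters of the genes was not tested, and the same counts were not made for other genes without a promoter peak. The counts of open genes depend on the annotated starts. Repeated sequence was also more common here. In 9 of the 55 genes, fewer than 50% of the promoter's 31-bp tiles were unique, as for 14 of the 252 genes open in both libraries.

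Several short motifs of promoter-binding factors differed in frequency between Zfp and other promoter peaks. Both strands of the 200 bp around each peak centre were searched, so a match can lie just outside the listed peak, and it is a description of sequence only. ACTACAATT, part of the element bound by ZNF143, was found in 8 WT Zfp peaks (1.12%, 0.484% to 2.19%) and 0.257% of other promoter peaks. In KO it was found in 10 (1.73%, 0.834% to 3.16%) and 0.361%. Windows of neighbouring peaks overlap, so the 10 KO peaks hold 8 distinct sites, and the intervals of motif shares, which treat peaks as independent, are too narrow. These ratios, 4.34 and 4.80, were the largest of 7 motifs. All of these Zfp peaks were shared, and they stood at the same 8 genes in both lists. Within the listed peaks alone, 6 peaks held it in each library, 0.838% (0.308% to 1.81%) in WT and 1.04% (0.383% to 2.25%) in KO, beside 0.0983% and 0.144% of other promoter peaks.

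AAGATGGCG, bound by YY1, was held by 19 WT peaks (2.65%, 1.61% to 4.11%) against 1.32% of other promoter peaks, and by 18 KO peaks (3.12%) against 1.44%. Within the listed peaks this difference lay within counting error, at 1.12% (0.484% to 2.19%) against 0.555% in WT and 1.04% (0.383% to 2.25%) against 0.532% in KO. Among its genes were Zfp207, Zfp335 and Zfp574 in both lists. CCGGAAG, bound by ETS factors, was held by 98 WT peaks (13.7%, 11.3% to 16.4%) against 9.43%, and by 89 KO peaks (15.4%) against 10.4%. GCGCATGCG, bound by NRF1, was held by 24 WT peaks (3.35%) against 1.91% and 19 KO peaks (3.29%) against 1.95%. CCAAT, bound by NF-Y, was about equally common (24.0% against 23.1% in WT, 25.3% against 27.4% in KO). GGGCGG, bound by SP and KLF factors, was less common at Zfp promoters, in 50.8% (47.1% to 54.6%) against 58.2% in WT and 49.2% against 59.1% in KO. Within the listed peaks it was held by 36.3% (32.8% to 40.0%) against 39.5% in WT, within counting error, and by 33.3% (29.4% to 37.3%) against 40.4% in KO. CTCGCGAG, linked to ZBTB33, was held by 4 WT peaks (0.559%, 0.152% to 1.42%) against 1.09% and 3 KO peaks (0.520%, 0.107% to 1.51%) against 1.23%, both within counting error. All but CCAAT and ACTACAATT contain CpG. Within the listed peaks GCGCATGCG was held by 6 WT peaks (0.838%, 0.308% to 1.81%) against 0.697% and 3 KO peaks (0.520%, 0.107% to 1.51%) against 0.643%, so no difference from other promoter peaks was detectable there.

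Peaks of 50% to 60% GC, a range chosen after seeing the data, were compared because Zfp promoter peaks are lower in GC. Of these, 229 WT and 198 KO peaks were at Zfp promoters. ACTACAATT was held by 3.06% (1.24% to 6.20%) against 0.689% in WT and by 4.04% (1.76% to 7.81%) against 0.885% in KO. CCGGAAG was held by 13.5% (9.39% to 18.7%) against 8.57% in WT and by 15.7% (10.9% to 21.5%) against 9.12% in KO. For both motifs the share of other peaks lay below the Zfp interval. GCGCATGCG was held by 2.62% (0.967% to 5.62%) against 1.38% in WT, within counting error, and by 4.04% (1.76% to 7.81%) against 1.40% in KO. The remaining motifs did not differ beyond counting error in this range. AAGATGGCG was held by 1.75% (0.478% to 4.41%) against 1.36% in WT and by 2.02% against 1.27% in KO. GGGCGG was held by 26.6% (21.0% to 32.9%) against 30.2% in WT and by 26.3% (20.3% to 33.0%) against 32.4% in KO. CTCGCGAG was held by 0.873% against 0.760% in WT and by 1.01% against 0.702% in KO, with 2 Zfp peaks each. CCAAT was held by 38.4% against 34.8% and by 37.9% against 38.3%.

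The ACTACAATT sites are shown because the ratio of Zfp to other promoter peaks was largest for this motif. Of the 8 genes, 6 had a site whose 33-bp window, read 5′ to 3′ on the strand of the motif in mm9, overlapped no annotated exon. Capitals mark ACTACAATT. The windows are at chr7:24866884-24866916 (Zfp180, minus strand), chr7:24919148-24919180 (Zfp235, minus), chr7:25055356-25055388 (Zfp93, minus), chr8:114167308-114167340 (Zfp1, minus), chr11:58120511-58120543 (Zfp692, plus) and chr11:50701156-50701188 (Zfp454, plus).
Zfp180: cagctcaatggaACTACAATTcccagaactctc
Zfp235: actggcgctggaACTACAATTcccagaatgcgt
Zfp93: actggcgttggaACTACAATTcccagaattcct
Zfp1: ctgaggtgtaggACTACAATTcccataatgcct
Zfp692: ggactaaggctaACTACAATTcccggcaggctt
Zfp454: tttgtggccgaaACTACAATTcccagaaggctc
In each of these windows the motif was followed by CCC. Of the WT promoter peaks of other genes with ACTACAATT, 83 of 89 (93.3%) also had a site followed by CCC, an extension counted after seeing the data. The sites lay from 15 to 71 bp upstream of a TSS. The Zfp180 site lay outside the listed peak in both libraries, and the other 5 lay within a listed peak in each. Zfp180, Zfp235 and Zfp93 belong to one chromosome 7 cluster. The Zfp235 and Zfp93 windows are nearly the same in sequence, so their sites may not be independent. The intervals of the motif shares do not allow for this either.

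Peaks from both ends of the comparison are printed to show the composition of shared and single-library promoter peaks. They are whole peaks of the plus strand of mm9 that overlap no annotated exon and have a centre found once in the genome, and capitals mark CpG. Zfp622 (chr15:25913920-25914020), Zfp788 (chr7:48888318-48888418) and Zfp277 (chr12:41172394-41172494) are the shared WT peaks of lowest rank that met these conditions, and each has a KO counterpart, with centres 75, 31 and 14 bp apart. Zfp791 (chr8:87643604-87643704) is the WT-only and Zfp759 (chr13:67229012-67229112) the KO-only gene whose qualifying peak ranked lowest. All of these peaks lie upstream of the gene.
Zfp622: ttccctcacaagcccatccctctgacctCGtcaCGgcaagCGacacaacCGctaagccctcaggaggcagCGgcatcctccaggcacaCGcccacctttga
Zfp788: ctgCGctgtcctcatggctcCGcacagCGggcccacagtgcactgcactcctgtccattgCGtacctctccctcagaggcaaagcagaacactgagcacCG
Zfp277: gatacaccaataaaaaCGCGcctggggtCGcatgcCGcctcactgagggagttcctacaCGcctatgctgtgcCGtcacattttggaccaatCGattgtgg
Zfp791: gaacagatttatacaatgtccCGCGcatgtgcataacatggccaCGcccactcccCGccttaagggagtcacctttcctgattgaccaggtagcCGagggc
Zfp759: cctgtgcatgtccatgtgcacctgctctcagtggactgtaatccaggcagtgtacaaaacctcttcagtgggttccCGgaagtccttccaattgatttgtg
Within the printed bases the shared peaks held 6, 5 and 7 CpGs, the Zfp791 peak 5 and the Zfp759 peak 1. Over the 200 bp used elsewhere, the last 2 held 8 and 5.

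The Zfp promoter peaks of chromosome 8 differed from the others in WT. Of 56 WT peaks there, 20 (35.7%, 23.4% to 49.6%) had no KO counterpart, against 16.5% (13.8% to 19.6%) on the other autosomes. Promoters of other genes on chromosome 8 had a like share, 33.1%, so this was not particular to Zfp genes. The ratio of KO to WT peaks there was 0.661 (0.424 to 1.02) for Zfp promoters and 0.660 for other promoters. Whether the libraries differ in copy number of chromosome 8 was not tested.

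Repeated sequence touched few of the peaks. The central 31 bp occurred more than once in the genome in 25 WT peaks (3.49%) and 24 KO peaks (4.16%), beside 1.87% and 2.04% of other promoter peaks. Of these, 21 WT and 20 KO peaks stood at KRAB-like genes, where they made up 9.13% and 10.5% of peaks. One alignment was reported per read, so reads of such copies may be placed at either copy.

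Genes of the co-repressor pathway were open in both libraries. Of Trim28, Setdb1, Atf7ip, Cbx1, Cbx3, Cbx5, Morc3, Dnmt1 and Uhrf1, all 9 had a promoter peak in WT and KO, with 30 and 28 peaks. Of these genes 8 had high-CpG promoters, a class in which 89.4% of other genes were open in both. Trim28, the co-repressor that binds KRAB domains, had 7 WT and 3 KO peaks, Setdb1 had 3 and 1, and Cbx3 had 6 and 5. More peaks were listed in KO for 5 of the 9, beside 19.7% of other genes with a promoter peak (51.0% had more in WT). Among the 5 were Atf7ip (1 and 2), Cbx1 (1 and 2), Cbx5 (6 and 7) and Morc3 (2 and 3). Dnmt1 had 2 in each and Uhrf1 had 2 and 3, so the promoter of the deleted gene was open in the KO list and does not check its label.

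Beyond promoters, Zfp gene bodies held 135 WT and 106 KO peaks more than 2 kb from any protein-coding TSS. Per Mb of gene body, with overlapping genes counted once, this was 18.5 (15.5 to 21.9) in WT and 14.5 (11.9 to 17.6) in KO, beside 14.5 and 12.8 for other genes. In contrast to the promoter peaks, 53.3% (44.6% to 62.0%) of the WT peaks in Zfp gene bodies had no counterpart, beside 43.0% in other gene bodies. The KO shares were 39.6% (30.3% to 49.6%) and 37.6%.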

How the data were processed

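ATAC-seq peak lists of 1 WT and 1 Uhrf1 KO ESC library were used. The authors mapped reads to mm9 with Bowtie2 2.1.0, reporting 1 alignment per read, and kept fragments shorter than 150 bp. The submitters' processing notes also name HOMER 4.9.1, without its role. The caller and threshold behind the lists, any excluded regions and any Tn5 shift of read ends are not given in the sources used here. The deposited score is 1 for every peak, and read depth per peak is unknown.

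Peaks were assigned to GENCODE vM1 transcript starts on NCBIM37, the build of mm9. Genes were merged by chromosome and name. Peaks no more than 100 bp apart were treated as shared. Sequence was read with pysam 0.24.0 and samtools 1.23.1, and genomic copies of 31-bp words were counted with numba 0.67.0. In Python 3.11.15 with pandas 2.3.3 and numpy 2.4.6, scipy 1.17.1 gave shares with exact (Clopper-Pearson) and numbers with exact Poisson 95% intervals. Intervals of a ratio of KO to WT peaks condition on their sum and treat peaks as independent, although neighbouring peaks are not. Overlap, distance and copy routines were tested on simulated data.

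A planned RefSeq protein table was not used here, and coding sequences were translated with biopython 1.88. Genes were named from lists of known roles, by number of peaks, by rank and by cluster. Single-library genes were named in full for KO, and for WT the 8 with the lowest ranks. Members and lists were chosen with earlier results of these data known. Alternatives changed the distance, transcripts, overlap rule, merging of peaks, rank, copy number, cluster gap and motif window.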

Additional observations from a re-analysis of the deposited data

How the results depend on the processing

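No paired analysis was possible because either group consists of a single library. Of 88 values under alternative settings, 64 stayed within 1.5 times the count or within the interval of the share. Zfp promoter peaks lacked a counterpart less often than other promoter peaks in all 18 such comparisons, beyond counting error in 9 of 9 for WT but in only 1 of 9 for KO (the one without chromosome 8), and Zfp genes were open more often than other genes in all 14. The ratio of KO to WT peaks ranged from 0.762 to 0.891, the highest with neighbouring peaks merged.

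Stricter overlap rules raised the shares without a counterpart. Requiring 1 shared bp gave 26.1% in WT and 13.9% in KO, and requiring 50% of both peaks gave 44.6% and 33.1%. A distance of 500 bp gave 4.63% in KO. The lower 50% of name numbers gave 471 WT and 359 KO peaks, with 69.0% and 62.7% of genes open. Of these peaks, 4.46% and 1.67% lacked a counterpart in the whole list of the other library. Judged against that whole list as well, 8 genes were WT-only and 1 was KO-only. Fewer peaks are used by construction there. Without starts of other genes nearby, 11 genes were WT-only. Searching the peak as listed in place of 200 bp around its centre lowered motif shares in WT and KO to 0.838% and 0.520% for GCGCATGCG, 8.24% and 8.15% for CCGGAAG, 36.3% and 33.3% for GGGCGG, 15.6% and 18% for CCAAT, and 1.12% and 1.04% for AAGATGGCG, as less sequence was searched. For GCGCATGCG in KO this put Zfp peaks below the 0.643% of other promoter peaks, within counting error. The excess of AAGATGGCG then lay within counting error of other promoter peaks in WT (0.555%) and KO (0.532%), as did the deficit of GGGCGG in WT (39.5%) but not in KO (40.4%).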
